A study of Mus musculus with 23 samples.

Results

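The 43 genes described here encode collagens and other proteins of the extracellular matrix, the scaffold between cells, and were taken from a fixed list by gene symbol. They are 43 of the 47311 genes whose transcripts were summed, and all 43 passed the filter on low counts that left 19882 genes for testing. RNA came from mammary fat pad next to a tumor in 23 female C57BL/6J mice, 1 library per mouse, and the libraries held 49438121 to 77369057 estimated counts. All mice carried a tumor from 250000 E0771 cells, a C57BL/6 mammary carcinoma line (here with luciferase), injected in 25% Matrigel into mammary gland 4. The obese mice were fed from 8 to 26 weeks of age with food that held 60% of its energy as fat, and the lean mice are labelled as fed 10%. The same ages of 8 and 26 weeks are entered for the lean mice. However, the treatment protocol entered for all 23 mice mentions the high-fat feeding only. The mice were sacrificed on day 21. From day 3 every mouse was given 200 µg of antibody at 3-day intervals. This was either anti-PD-1, which blocks an inhibitory receptor on T cells, or IgG2a, its isotype control. Of the lean mice 5 had IgG2a and 5 anti-PD-1, and of the obese mice 5 had IgG2a and 8 anti-PD-1. The diet-induced obesity is a property of the whole animal, so no cell type is targeted, and the tissue is a mixture in which fewer cells of a type and less RNA per cell cannot be told apart.

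Collagen chains are made in the endoplasmic reticulum, where prolines and lysines are hydroxylated and chains join in triple helices, and after secretion they are trimmed and crosslinked by lysyl oxidases. Fibrillar collagens (types I, III and V) form the fibers of connective tissue, while type IV collagen, laminins and nidogens build the basement membrane, the thin sheet that in fat surrounds each adipocyte and vessel. Type VI collagen forms beaded filaments close to that sheet and is abundant in fat. Small leucine-rich proteoglycans coat fibrils, and matricellular proteins such as thrombospondins and tenascin C act on cells and growth factors more than they bear load.

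Some of the fat pads included lymph node, which the high endothelial venule gene Glycam1 marks. It was at 116.5 to 1917 CPM (estimated counts scaled to a common library total) in 11 libraries and at most 0.4985 CPM in the other 12. Among the 11 with lymph node were 7 lean mice (4 given IgG2a, 3 anti-PD-1) and 4 obese mice (2 of each antibody). The 12 without it came from only 3 lean mice (1 given IgG2a, 2 anti-PD-1) and from 9 obese mice (3 and 6). Lymph node content and obesity were therefore linked across the groups, and the genes are described in the 4 groups and again within each set. Adipocyte markers (8 genes, Adipoq and Plin1 among them) summed to 5618 CPM or more in every library. Fibroblast markers (10 genes, Pdgfra and Dpt among them) summed to 557.5 to 1084 CPM in all 23. Several libraries held RNA of other tissues. Skeletal muscle markers summed to 251.5 to 2184 CPM in 5 libraries (obese IgG2a 3, lean anti-PD-1 1 and 2, lean IgG2a 1 and 2) and to at most 77.11 CPM elsewhere. The E0771-associated genes Hmga2, Fosl1 and Mmp13 summed to 245.1, 45.65 and 350 CPM in obese IgG2a 2, 4 and 5, and to at most 19.8 CPM elsewhere. These genes were picked from earlier results of these data. Obese IgG2a 5 also held liver markers at 8964 CPM.

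Promoter sequences are shown for the members that rose with obesity in a comparison of the 4 groups, so that a reader can see what lies before the genes the results turn on. A RefSeq window (GRCm38.p6, 250 bases before to 50 after the gene start) was at hand for 28 of the 43 members. Among the 7 members that rose in these comparisons, Thbs1 and Nid2 had none. The part upstream of the start and free of annotated exons is printed 5′ to 3′ on the gene's strand. Capitals mark matches on either strand to the motifs searched: the TATA box core as TATAAA, the GC box core as GGGCGG, the CCAAT box by those letters, an AP-1 motif as TGANTCA, a TEAD motif as GGAATG and a SMAD motif as CAGAC.
Thbs2, minus strand, chr17:14694263-14694512: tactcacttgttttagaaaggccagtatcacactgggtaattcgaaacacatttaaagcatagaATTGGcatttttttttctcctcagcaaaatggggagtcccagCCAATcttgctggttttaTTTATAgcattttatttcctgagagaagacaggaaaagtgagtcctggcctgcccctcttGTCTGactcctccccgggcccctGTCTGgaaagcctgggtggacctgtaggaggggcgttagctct
Tnc, minus strand, chr4:64047016-64047265: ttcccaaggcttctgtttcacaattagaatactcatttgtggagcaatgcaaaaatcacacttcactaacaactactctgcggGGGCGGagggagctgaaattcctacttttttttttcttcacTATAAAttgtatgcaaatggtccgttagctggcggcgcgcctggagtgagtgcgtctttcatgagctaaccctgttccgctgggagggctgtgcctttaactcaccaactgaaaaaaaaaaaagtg
Aebp1, plus strand, chr11:5861616-5861865: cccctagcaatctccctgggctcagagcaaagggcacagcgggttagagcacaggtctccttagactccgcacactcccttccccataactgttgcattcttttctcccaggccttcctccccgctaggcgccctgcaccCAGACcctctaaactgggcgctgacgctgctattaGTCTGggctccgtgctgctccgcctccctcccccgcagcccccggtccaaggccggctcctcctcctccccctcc
Nid1, plus strand, chr13:13437352-13437550: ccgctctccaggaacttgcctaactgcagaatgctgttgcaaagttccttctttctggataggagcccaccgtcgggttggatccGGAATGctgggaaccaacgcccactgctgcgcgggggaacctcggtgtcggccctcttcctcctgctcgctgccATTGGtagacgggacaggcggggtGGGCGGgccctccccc
Bgn, plus strand, chrX:73483351-73483600: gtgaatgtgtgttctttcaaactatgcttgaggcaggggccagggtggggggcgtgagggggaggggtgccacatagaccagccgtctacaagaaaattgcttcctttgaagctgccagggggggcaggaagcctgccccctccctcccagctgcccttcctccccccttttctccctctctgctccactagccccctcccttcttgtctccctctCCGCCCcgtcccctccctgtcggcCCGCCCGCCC
The 5 stretches differ in what they hold: Thbs2 and Tnc have a TATA match, Aebp1 has CAGAC matches only, and Bgn has GC box matches only, 2 of which overlap each other. Over the whole 300-base windows, TATAAA was present for 4 of the 28 members (14.3%) and 15.7% of the 27025 genes with a window. Those genes were not limited to the genes tested, so the shares are not matched for expression. GGGCGG was present for 18 members (64.3%) and 38.2% of genes, and CAGAC for 20 members (71.4%) and 53.2% of genes. CCAAT was present for 12 members (42.9%, against 41.1%), GGAATG for 4 (14.3%, against 16.6%) and TGANTCA for 2 (7.14%, against 8.97%). A match of letters is a description and no evidence of binding. Col4a1 and Col4a2, the genes of the main type IV collagen chains, lie head to head on chromosome 8, and their windows share 78 bases.

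Across all 23 libraries Sparc was the member with the highest level per length, at 1248 TPM ± 1167 (SD, n = 23). SPARC is a collagen-binding protein needed for collagen assembly. Col3a1 followed at 309.7 TPM ± 269, then Col4a1 at 201 ± 197, Col4a2 at 166 ± 180.3 and Bgn (biglycan, a proteoglycan) at 159 ± 115 TPM. The SDs are close to the means because the libraries spread widely, and the order of these neighbours is not separated beyond that spread. Col12a1 was lowest, at 2.28 TPM ± 2.42. Summed over the 43 genes, the level was 12253 to 21564 CPM in the 9 obese libraries without lymph node and 4232 to 8583 CPM in the 3 lean libraries without it. With lymph node, the sum was 3121 to 5590 CPM in 7 lean and 2132 to 4253 CPM in 4 obese libraries. Without lymph node, obese libraries thus all lay above lean ones, while with it the ranges overlapped and the obese libraries included the lowest.

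**Figure D1:**
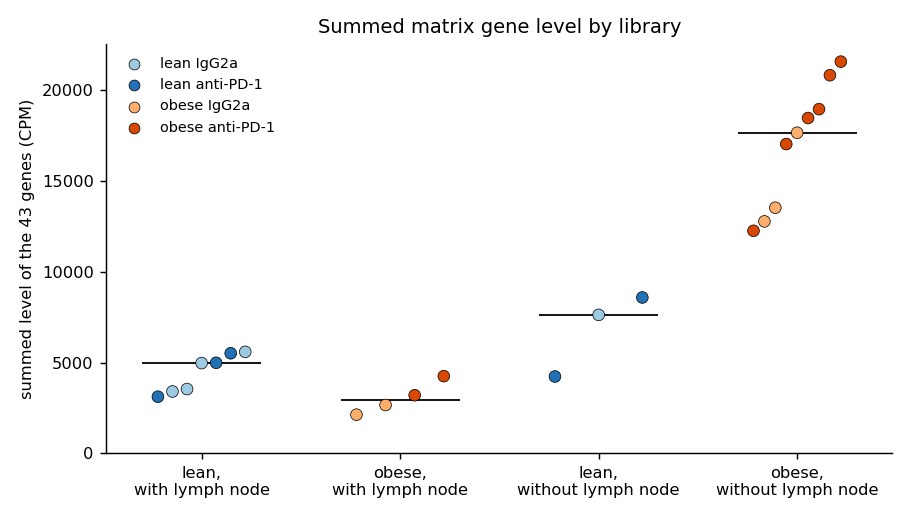
Summed level of the 43 matrix genes in each library (y axis, CPM), by weight and lymph node content (x axis), with a line at each median and colors for the 4 groups. The 9 obese libraries without lymph node, at 12253 CPM or more, lie above all others, of which the highest is at 8583 CPM.

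**Figure D2:**
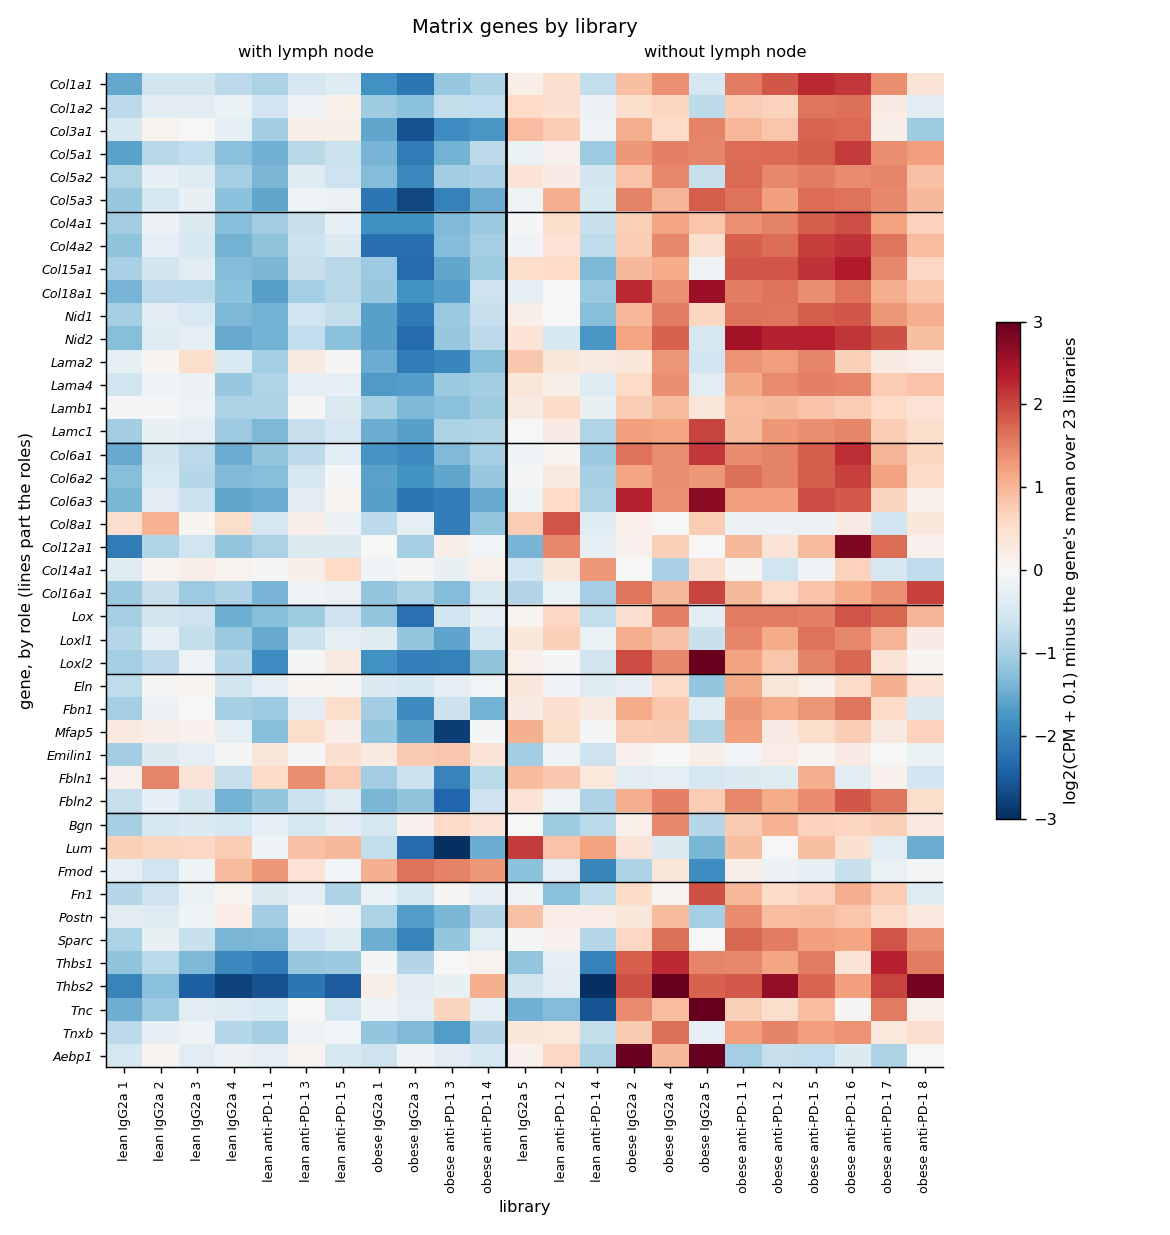
Each row is a matrix gene and each column a library; color gives log2(CPM + 0.1) minus the gene's mean over the 23 libraries, cut at 3 in either direction. Most rows are higher in the obese libraries without lymph node. Fmod, Emilin1, Lum, Fbln1, Col8a1, Col14a1 and Aebp1 are among those with other patterns.

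The first comparison asked how matrix genes differ between obese and lean mice under each antibody. Under IgG2a, 4 of the 43 members rose in obese mice and none fell (edgeR's quasi-likelihood test, adjusted p under 0.05 over all genes tested, which is what rose, fell and called mean throughout), against 5.79% of all genes called (2.68% higher, 3.12% lower). The 4 were Thbs1, Thbs2, Tnc and Aebp1, all from the 8 adhesive and matricellular members. The median log2 fold change was 0.63 over the members and 0.12 over all genes. Under anti-PD-1, 5 members rose and none fell, against 10.1% of all genes called (5.2% higher, 4.85% lower). They were Thbs1, Thbs2, Nid1, Nid2 and Bgn. The median was 1.13 over the members and 0.08 over all genes. No fibrillar collagen, type VI collagen or crosslinking enzyme was called in either comparison. By CPM alone, every obese library lay above every lean one under IgG2a in 3 members (Emilin1, Thbs2 and Tnc, against 3.26% of genes) and below in 1 (Lum, against 3.36%). Under anti-PD-1 it lay above in 3 (Bgn, Thbs1 and Thbs2, against 3.62%) and below in none (against 2.35%). Across all 13 obese and 10 lean libraries no member separated in either direction (against 0.523% of genes higher and 1.19% lower).

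Markers of other cells moved in the same comparisons. Under IgG2a, 3 of 3 E0771-associated genes, 3 of 6 liver and 3 of 6 macrophage markers rose, and 3 of 8 mammary epithelial markers fell. The E0771-associated genes were picked from earlier results of these data, so their rise is no independent observation. Under anti-PD-1, 8 of 8 mammary epithelial and 4 of 6 skeletal muscle markers fell. With a skeletal muscle score added, Thbs1 and Thbs2 were the members called under anti-PD-1, and Nid1, Nid2 and Bgn had edgeR adjusted p-values of 0.105, 0.0542 and 0.0509. No fibroblast marker was called under either antibody (0 of 10 each). The part of these cells in the matrix values was not tested beyond that score.

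Thbs2 encodes thrombospondin 2, a secreted matricellular protein that takes part in collagen fibril assembly and restrains vessel growth. Under IgG2a it was at 25.0, 41.9, 18.3, 14.7 and 69.3 CPM in lean libraries 1 to 5 and at 114, 382, 79.4, 857 and 342 CPM in obese libraries 1 to 5. Under anti-PD-1 it was at 16.3, 81.5, 22.4, 11.2 and 17.9 CPM in the 5 lean libraries and at 86.0 to 735 CPM (median 350.2) in the 8 obese libraries. Every obese library was above every lean library under the same antibody. The log2 fold change was 3.14 (SE 0.713, edgeR adjusted p = 0.0111) under IgG2a and 3.55 (SE 0.700, edgeR adjusted p = 0.00249) under anti-PD-1.

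Thbs1 encodes thrombospondin 1, which activates latent TGF-beta and restrains vessel growth. Under IgG2a it was at 29.4, 38.8, 26.5, 17.8 and 29.9 CPM in lean libraries 1 to 5 and at 65.0, 235, 37.3, 324 and 187 CPM in obese libraries 1 to 5. Under anti-PD-1 the lean libraries were at 15.5, 56.7, 30.9, 16.6 and 31.6 CPM and the 8 obese libraries at 68.8 to 343 CPM (median 169). Only obese IgG2a 3 fell within the range of lean libraries of its antibody group. The log2 fold change was 2.35 under both antibodies (SE 0.547, edgeR adjusted p = 0.0133 under IgG2a, and SE 0.519, edgeR adjusted p = 0.00613 under anti-PD-1). Leaving out any single library kept Thbs1 and Thbs2 called under both antibodies. Without obese IgG2a 2 and 5, the libraries richest in E0771-associated genes, the edgeR adjusted p under IgG2a was 0.0975 for Thbs1 (log2 fold change 2.11) and 0.0578 for Thbs2 (3.11).

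Tnc encodes tenascin C, a matrix protein of wounds and tumors. Under IgG2a it was at 4.45, 5.86, 10.1, 9.62 and 4.54 CPM in lean libraries 1 to 5 and at 11.5, 33.97, 10.5, 24.1 and 132 CPM in obese libraries 1 to 5, with no overlap. The log2 fold change was 2.44 (SE 0.584, edgeR adjusted p = 0.0159). The call was lost when lean IgG2a 5 or obese IgG2a 5, the highest library, was left out (edgeR adjusted p up to 0.0922). Without obese IgG2a 2 and 5 the log2 fold change was 1.02 (edgeR adjusted p = 0.378). Under anti-PD-1 it was 1.34 (SE 0.525, edgeR adjusted p = 0.107), with lean libraries at 1.99 to 12.7 CPM and obese libraries at 10.2 to 37.2 CPM.

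Nid1 and Nid2 encode the nidogens, which link laminin to type IV collagen in the basement membrane. Under anti-PD-1, Nid2 was at 13.3, 25.6, 21.1, 10.5 and 15.1 CPM in the 5 lean libraries and at 15.96 to 199 CPM (median 146) in the 8 obese libraries. Nid1 was at 119, 320.1, 212, 132 and 196 CPM in lean and 148 to 1173 CPM (median 886) in obese libraries. The obese libraries that overlapped the lean range were the 2 with lymph node for both genes. The log2 fold change was 2.76 for Nid2 (SE 0.732, edgeR adjusted p = 0.0195) and 1.91 for Nid1 (SE 0.609, edgeR adjusted p = 0.0477). The Nid1 call was lost in 15 of the 23 fits that left out 1 library, and the Nid2 call when library 4 or 5 of the lean anti-PD-1 group was left out. Bgn, at 92.5 to 158.5 CPM in lean and 236 to 399 CPM in obese libraries, did not overlap and rose by 1.13 (SE 0.303, edgeR adjusted p = 0.0201), a call lost when library 2 or 4 of that lean group was left out.

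Aebp1 encodes aortic carboxypeptidase-like protein, a collagen-binding secreted protein whose shorter form is a transcriptional repressor. It was at 24.1, 36.9, 27.6, 30.6 and 38.1 CPM in lean IgG2a libraries 1 to 5, and at 22.8, 273, 32.0, 68.0 and 348 CPM in obese IgG2a libraries 1 to 5. The lean anti-PD-1 libraries were at 18.1 to 53.8 CPM and the 8 obese anti-PD-1 libraries at 17.2 to 34.3 CPM (median 22.8). The 3 high libraries were obese IgG2a 2, 4 and 5, which are also the 3 with the most E0771-associated RNA. Obese against lean under IgG2a gave a log2 fold change of 2.02 (SE 0.519, edgeR adjusted p = 0.0238). Without obese IgG2a 2 and 5 it was 0.19 (SE 0.335, edgeR adjusted p = 0.900), so the value rests on those libraries.

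**Figure D3:**
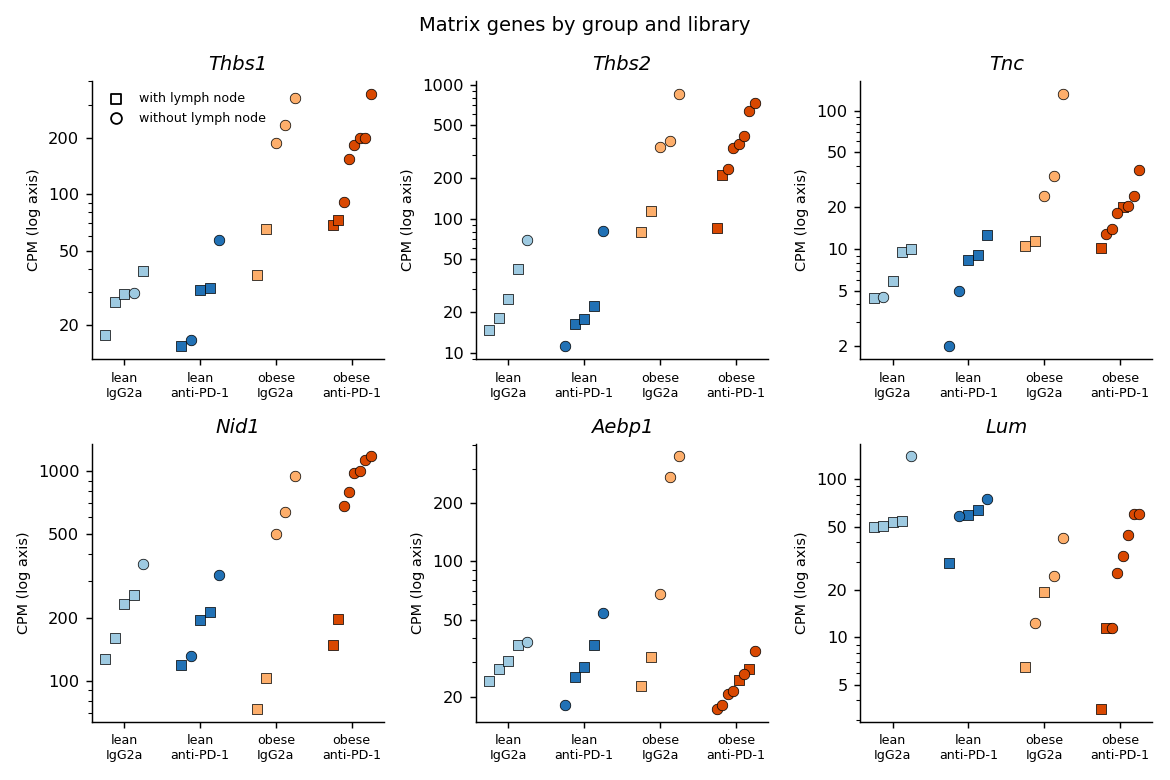
CPM on a log axis in each library (points) for 6 members, by group (x axis), with squares for libraries with lymph node and circles for those without. Thbs2 in obese groups lies above the lean groups of the same antibody, and Aebp1 is highest in obese IgG2a libraries, at 68.0, 273 and 348 CPM.

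The second comparison asked how anti-PD-1 differs from IgG2a. In lean mice no member and no gene at all was called (0% of genes, 3 members at an unadjusted p under 0.05, 0 members called by DESeq2), and the median log2 fold change was 0.04 over the members and -0.04 over all genes. The smallest p-values were those of Emilin1 (an elastic fiber glycoprotein, 0.57, SE 0.216), Col12a1 (a fibril-associated collagen, 1.37, SE 0.576) and Col14a1 (another such collagen, 0.70, SE 0.332), each with an edgeR adjusted p of 1. In obese mice 1 member was called, against 0.538% of all genes (0.00503% higher, 0.533% lower): Aebp1 fell by 2.58 (SE 0.448, edgeR adjusted p = 0.0328). Without obese IgG2a 2 and 5 this was -0.74 (SE 0.301, edgeR adjusted p = 0.556), and the call was lost in 12 of the 23 fits that left out 1 library. Eln (elastin, 0.84, SE 0.298, edgeR adjusted p = 0.213) and Col12a1 (1.31, SE 0.535, edgeR adjusted p = 0.281) came next by p.

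The median log2 fold change of anti-PD-1 in obese mice was 0.62 over the members and -0.00 over all genes. The obese groups differed in lymph node content, with 2 of 5 IgG2a and 2 of 8 anti-PD-1 libraries containing it. With a lymph node term the members' median was 0.39. The interaction, which asks whether obesity acts differently under the 2 antibodies, called no member and no gene (0% of genes; 3 members had an unadjusted p under 0.05: Aebp1, Nid2 and Emilin1). DESeq2 called Aebp1 alone (log2 fold change -2.62, DESeq2 adjusted p = 0.045). Its edgeR value was -2.60 (SE 0.676, adjusted p = 0.396). For Nid2 the interaction was 2.07 (SE 0.988, edgeR adjusted p = 0.679) and for Emilin1 -0.60 (SE 0.289, edgeR adjusted p = 0.683).

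Lymph node content moved with the matrix genes more widely than obesity or antibody did. In a fit with the 4 groups and a lymph node term, 38 of 43 members were called, 36 lower and 2 higher with lymph node, against 42.7% of all genes (21.7% higher, 21% lower). The median log2 fold change was -1.75 over the members and -0.05 over all genes. All 6 fibrillar collagens and all 10 basement membrane genes fell, as did the 3 crosslinking enzymes. The fit gives lean and obese mice a single shared lymph node term, although they differed in this. In lean libraries the summed level of the 43 genes overlapped, at 3121 to 5590 CPM with and 4232 to 8583 CPM without lymph node. In obese libraries it did not, at 2132 to 4253 and 12253 to 21564 CPM. Lox, the founding lysyl oxidase, had the smallest p (-1.83, SE 0.284, edgeR adjusted p = 2.9e-05), followed by the laminin chain gene Lamb1 (-1.51, SE 0.239, edgeR adjusted p = 3.8e-05) and Col5a1 (-2.16, SE 0.350, edgeR adjusted p = 4.8e-05). Still, no member separated the 11 libraries with lymph node from the 12 without it (0 lower, against 0.216% of genes, and 0 higher, against 2.77%).

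The 2 members higher with lymph node were Fmod, which encodes fibromodulin, a collagen-binding proteoglycan (1.46, SE 0.269, edgeR adjusted p = 0.00018), and Emilin1 (0.40, SE 0.135, edgeR adjusted p = 0.0205). Fmod was at 6.35 to 30.04 CPM in libraries with and 2.41 to 12.4 CPM in those without lymph node. Bgn, Tnc, Aebp1, Fbln1 and Col14a1 were not called. Adipocyte markers also fell with lymph node (7 of 8, median -1.07), as did 4 of 6 endothelial markers (median -1.09). Of 10 fibroblast markers, 4 fell and 2 rose (median -0.55). The part of these cell types in the matrix values was not tested.

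Within the 12 libraries without lymph node, obesity was fitted with antibody as a further term. Here 22 of 43 members were called, 20 higher and 2 lower in obese mice, against 23.7% of all genes called (13.5% higher and 10.2% lower). The median log2 fold change was 1.00 over the members and 0.19 over all genes. In 13 members all 9 obese libraries lay above all 3 lean libraries, against 13.8% of genes, and in none did they lie below, against 3.97%. The lean arm is 3 libraries, and without lean anti-PD-1 4, the library with the lowest matrix sum of the 3, 9 members were called. That library also had the fewest genes with at least 10 counts of all libraries, 14806 against 16690 to 18403 in the others. Without obese IgG2a 2 and 5, 25 were called (23 higher, 2 lower), and 18 of the 22 were among them. The 4 calls lost were Col5a3 (0.77, edgeR adjusted p = 0.111), Col6a3 (1.13, 0.0778), Loxl2 (1.11, 0.0624) and Lum (-1.44, 0.0565).

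Of the basement membrane genes 6 of 10 rose: Col4a1, Col4a2, Col18a1, Nid1, Nid2 and Lamc1. Col4a1 was at 704, 1067 and 462 CPM in the 3 lean libraries (IgG2a 5, then anti-PD-1 2 and 4) and at 1189 to 2834 CPM in the 9 obese libraries, with no overlap. Its log2 fold change was 1.10 (SE 0.331, edgeR adjusted p = 0.0206) and that of Col4a2 was 1.35 (SE 0.376, edgeR adjusted p = 0.0128). Col18a1, whose protein carries the endostatin fragment, was at 92.5, 112 and 51.3 CPM in the lean and 197 to 652 CPM in the obese libraries (1.84, SE 0.328, edgeR adjusted p = 0.00049). The laminin chain gene Lamc1 rose by 1.23 (SE 0.312), Nid1 by 1.47 (SE 0.374) and Nid2 by 1.87 (SE 0.582). Col15a1, Lama2, Lama4 and Lamb1 were not called, with values from 0.13 (Lama2) to 1.05 (Col15a1). Leaving out lean anti-PD-1 4 ended the calls of Col4a1, Col4a2, Nid1, Nid2 and Lamc1.

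Of the fibrillar collagen genes, Col5a1 and Col5a3 rose. They encode chains of type V collagen, which nucleates type I fibrils. Col5a1 was at 90.9, 114 and 48.7 CPM in the 3 lean libraries and at 249.7 to 444.7 CPM in the 9 obese libraries, with no overlap (1.71, SE 0.300, edgeR adjusted p = 0.00041). Col5a3 rose by 0.99 (SE 0.338, edgeR adjusted p = 0.0377), a call lost in 16 of the 23 fits that left out 1 library (0.76 to 1.51, edgeR adjusted p up to 0.19). The chains of the bulk collagens were not called: Col1a1 had a log2 fold change of 1.10 (SE 0.424, edgeR adjusted p = 0.0647), Col1a2 0.16 (SE 0.380) and Col3a1 0.29 (SE 0.433). Col5a2, which encodes another type V chain, was at 0.90 (SE 0.367, edgeR adjusted p = 0.0775). Col1a1 was at 339, 424 and 177 CPM in the 3 lean libraries and 208 to 1397 CPM in the obese ones, which overlapped.

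All 3 type VI collagen genes rose: Col6a1 by 1.73 (SE 0.354, edgeR adjusted p = 0.0015), Col6a2 by 1.45 (SE 0.348, edgeR adjusted p = 0.00504) and Col6a3 by 1.46 (SE 0.459, edgeR adjusted p = 0.0249). Col6a1 was at 187, 214 and 94.4 CPM in lean and 317 to 945 CPM in obese libraries. Col6a3, whose chain yields endotrophin, was at 114, 191 and 65.3 CPM in lean and 141 to 804 CPM in obese libraries. Col6a1 did not overlap between lean and obese libraries and Col6a3 did. The Col6a2 call was lost when lean anti-PD-1 4 was left out (edgeR adjusted p = 0.0516). The Col6a3 call was lost when lean IgG2a 5 or lean anti-PD-1 4 was left out (edgeR adjusted p up to 0.125). Col16a1, a fibril-associated collagen gene, rose by 1.81 (SE 0.323, edgeR adjusted p = 0.00047), at 13.7 to 24.2 CPM in lean and 41.9 to 117 CPM in obese libraries. Col8a1, which encodes a short network collagen of vessel walls, fell by 1.14 (SE 0.323, edgeR adjusted p = 0.0147). That call ended without lean anti-PD-1 2, the highest library at 37.9 CPM, which left -0.32. The fibril-associated collagen genes Col12a1 (0.82, SE 0.496) and Col14a1 (-0.78, SE 0.344) were not called.

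Thrombospondins and tenascin C gave the widest differences among the members. Thbs2 rose by 2.97 (SE 0.549, edgeR adjusted p = 0.00067), Tnc by 2.78 (SE 0.493, edgeR adjusted p = 0.00046) and Thbs1 by 2.44 (SE 0.408, edgeR adjusted p = 0.00027), all with no overlap. Fn1 (fibronectin, an adhesive glycoprotein that binds integrins) rose by 1.31 (SE 0.342) and Sparc by 1.30 (SE 0.391). Sparc was at 1343, 1553 and 775 CPM in the 3 lean libraries and 1413 to 5193 CPM in the 9 obese libraries. The lowest of the 9, obese IgG2a 5, fell between the lean values. The Sparc call was lost when lean anti-PD-1 2, lean anti-PD-1 4 or obese IgG2a 4 was left out (edgeR adjusted p up to 0.136). Leaving out lean anti-PD-1 2 ended the Fn1 call (edgeR adjusted p = 0.0639). Postn (periostin), Tnxb (tenascin X) and Aebp1 were not called, at -0.02, 0.80 and -0.11.

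Of the crosslinking enzymes, Loxl2 rose by 1.42 (SE 0.433, edgeR adjusted p = 0.0216), while Lox (1.00, SE 0.393, edgeR adjusted p = 0.0691) and Loxl1 (0.49) were not called. Of the 6 elastic fiber and fibulin genes, Fbln2 rose by 1.25 (SE 0.393, edgeR adjusted p = 0.0247). Eln, Fbn1 (fibrillin 1), Mfap5, Emilin1 and Fbln1 were not called, with values from -1.02 (Fbln1) to 0.46 (Emilin1). The proteoglycans went both ways, with Bgn up by 1.03 (SE 0.340, edgeR adjusted p = 0.0327) Lum (lumican) at -1.62 (SE 0.487, edgeR adjusted p = 0.0208) and Fmod not called at 0.55 (SE 0.404). Lum was at 139, 58.2 and 74.5 CPM in lean and 11.5 to 60.7 CPM in obese libraries. Its call was lost when lean IgG2a 5, the highest library, or lean anti-PD-1 4 was left out. The Bgn call was lost in 12 of the 23 fits that left out 1 library. Leaving out lean anti-PD-1 4 also ended the calls of Loxl2 and Fbln2. So did leaving out lean IgG2a 5 for Loxl2 (edgeR adjusted p up to 0.0876) and lean anti-PD-1 2 for Fbln2 (up to 0.163).

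Other cell types also differed in this set. Mammary epithelial markers fell in obese mice (8 of 8, summed level 261.9 to 1791 CPM against 1238 to 3979 CPM in lean), as did 4 of 6 skeletal muscle and 3 of 5 epidermis markers. The muscle markers summed to 2184 CPM in lean anti-PD-1 2, but to 11.49 and 4.27 CPM in the other lean libraries, below all 9 obese ones (15.57 to 77.11 CPM). Adipocyte markers had a median log2 fold change of -0.11 (2 of 8 lower) and fibroblast markers 0.01 (2 higher and 2 lower of 10). The fibroblast markers summed to 593.7 to 894.4 CPM in lean (median 836.3) and 557.5 to 1084 CPM in obese libraries (median 962.3), which overlapped. The myofibroblast and mural markers summed to 440.2 to 520 CPM in lean and 393.9 to 1277 CPM in obese libraries, with 1 of 6 higher and 2 lower. Endothelial markers summed to 486 to 772.9 CPM in lean (median 637.4) and 350.6 to 1092 CPM in obese libraries (median 882.7). Macrophage markers summed to 117 to 164.5 CPM (median 135.2) and 135.4 to 403.3 CPM (median 215.8). The E0771-associated genes summed to 0.9834 to 3.227 CPM in lean and 1.606 to 350 CPM in obese libraries. The part of all these cells in the result was not tested.

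Within the 11 libraries with lymph node, most of these genes had values of the opposite sign. Of 43 members, 17 were called, 16 lower and 1 higher in obese mice, against 15.4% of all genes (10.4% lower and 4.98% higher). The median log2 fold change was -0.83 over the members and -0.00 over all genes. Col3a1, the main chain gene of type III collagen, fell by 2.0 (SE 0.436, edgeR adjusted p = 0.00317) and Col5a3 by 1.71 (SE 0.324, edgeR adjusted p = 0.00095). Basement membrane genes fell in 5 of 10 (Col4a1, Col4a2, Lama2, Lama4 and Lamb1), with Lama2 at -1.85 (SE 0.387, edgeR adjusted p = 0.00226). Lama2 encodes the laminin alpha 2 chain of muscle, nerve and stroma. It was at 7.52 to 22.3 CPM in the 7 lean libraries (median 15.9) and at 5.44, 3.56, 3.87 and 6.34 CPM in the 4 obese libraries (1 and 3 of the IgG2a group, 3 and 4 of the anti-PD-1 group), without overlap.

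Lum fell by 2.56 (SE 0.533, edgeR adjusted p = 0.00234), from 29.6 to 63.5 CPM in lean libraries to 19.3, 6.47, 3.53 and 11.5 CPM in the 4 obese ones. Fbln1 fell by 2.03 (SE 0.455, edgeR adjusted p = 0.004), Loxl2 by 1.5 (SE 0.398) and Col8a1 by 1.48 (SE 0.342). Col6a2 (-1.02), Col6a3 (-1.38), Mfap5 (-1.42), Postn (-1.19) and Tnxb (-1.04) were also called lower. Among the 23 fits that left out 1 library, the call was lost in 13 for Mfap5, 12 for Tnxb, 7 each for Col6a2 and Col6a3, 4 for Col4a2, 3 for Postn and 2 each for Col4a1, Lama4 and Loxl2. Thbs2 was the member that rose, by 2.23 (SE 0.426, edgeR adjusted p = 0.00108), from 14.7 to 41.9 CPM in lean libraries to 114, 79.4, 86.0 and 213 CPM in the 4 obese ones. In 4 members the obese libraries all lay below the lean ones (Col3a1, Lama2, Lamb1 and Lum, against 6.03% of genes), and in Thbs2 alone above them (against 12.2%).

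Markers of other cells also differed in this set. B cell markers summed to 2231 to 3745 CPM in obese and 325.4 to 2023 CPM in lean libraries, with no overlap, and 3 of 7 rose. The other lymph node measures overlapped: lymph node stroma markers summed to 1828 to 4256 CPM in obese and 373.5 to 1908 CPM in lean libraries (2 of 7 rose), T cell markers to 694 to 857.6 and 117.7 to 708.5 CPM (0 of 6 called), and Glycam1 was at 629.8 to 1917 and 116.5 to 890.3 CPM. Of the adipocyte markers 4 of 8 fell (median -1.12), of the endothelial markers 3 of 6 (median -1.21) and of the mammary epithelial markers 7 of 8 (median -1.47), while 3 of 6 macrophage markers rose (median 0.88). Of the fibroblast markers 1 of 10 fell (median -0.12). With a B cell score added to the fit, a step chosen after the data were seen, 2 members were called, both higher: Thbs2 at 3.25 (SE 0.589, edgeR adjusted p = 0.00357) and Thbs1 at 1.91 (SE 0.448, edgeR adjusted p = 0.0308). None was then lower, and the members' median was -0.20. The score was 7.93 to 8.84 in the obese and 5.24 to 7.93 in the lean libraries of this set. The fit can thus hardly part the score from obesity, and the loss of calls does not show what the lower values rest on. The part of the other cell types in the 16 lower values was not tested.

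**Figure D4:**
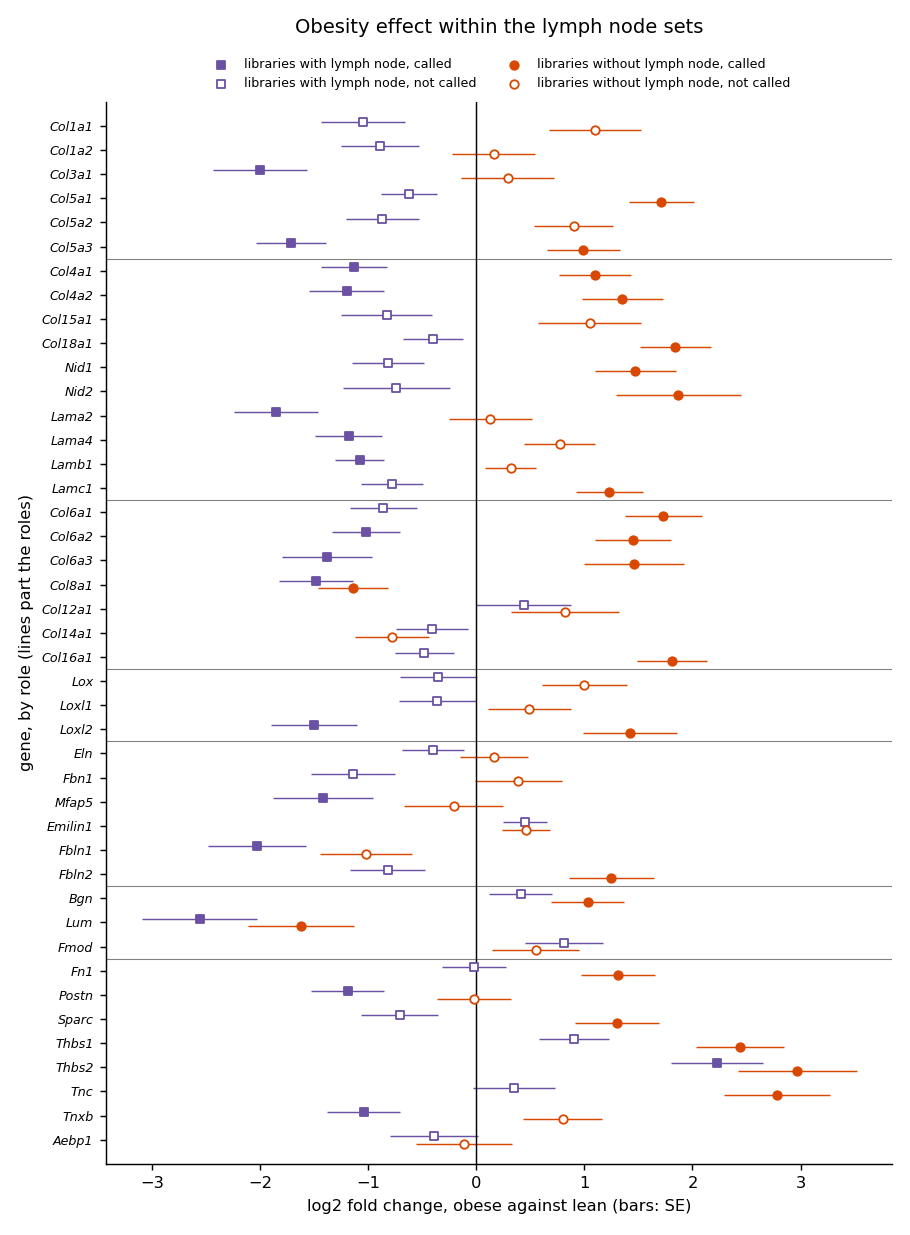
Log2 fold change of obese against lean mice with its SE (x axis) for each of the 43 members (y axis, by role), in the 11 libraries with (squares) and the 12 without lymph node (circles), filled where called. The members' medians are -0.83 with and 1.00 without lymph node, while Thbs2 is called higher in both sets.

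The difference of the obesity effect between the sets was tested directly. It was called in 24 of 43 members, all with a lower value with lymph node, against 11.9% of all genes (3.43% higher, 8.51% lower), and the median difference was -1.85 over the members and -0.28 over all genes. Of the basement membrane genes 9 of 10 differed, and of the fibrillar collagen genes 5 of 6, as did all 3 type VI collagen genes. The smallest p-values were those of Col5a1 (-2.33, SE 0.394, edgeR adjusted p = 0.00277), Col5a3 (-2.70, SE 0.471, edgeR adjusted p = 0.00277) and Col6a1 (-2.59, SE 0.468, edgeR adjusted p = 0.00319). With the B cell score added only Col5a1 was called (-1.78, SE 0.423, edgeR adjusted p = 0.0422). Here too that score can hardly be parted from obesity in the libraries with lymph node. Thbs2 was not called as different (-0.74, SE 0.639, edgeR adjusted p = 0.476), nor were Lum (-0.95, SE 0.719) and Col8a1 (-0.35, SE 0.473), which were lower in obese mice in both sets.

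When the lymph node term was added to the comparison of the 4 groups, the members called for obesity changed. That term is shared by lean and obese mice, so the fit does not allow for an obesity effect that differs between the sets. Under IgG2a there were 9, with Thbs1 (1.45), Thbs2 (2.19), Tnc (2.09) and Emilin1 higher and Lum (-2.44), Col8a1 (-1.34), Lama2, Fbln1 and Postn lower, and the median turned from 0.63 to -0.47. Under anti-PD-1 there were 6, with Thbs1 (1.71), Thbs2 (2.88) and Bgn higher and Lum (-1.71), Col8a1 (-1.33) and Fbln1 lower, and the median was 0.31. Aebp1 was not called for obesity under IgG2a in that fit (1.43, SE 0.509, edgeR adjusted p = 0.0579).

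Other genes of matrix biology were read from 4 lists. In the libraries without lymph node, 9 of 21 genes for collagen modification and processing (42.9%) rose with obesity and none fell, where 13.5% of all genes were called higher and 10.2% lower. They included Plod2, a lysyl hydroxylase (1.65, SE 0.429), P4ha2, a prolyl hydroxylase subunit (1.15, SE 0.258), Sec24d, a coat protein for procollagen export (1.48, SE 0.223), and Pcolce2, an enhancer of procollagen trimming (2.32, SE 0.547). Of 16 collagen and fibronectin receptor genes 5 rose and none fell: Itga1, Itga5 and Itgb1 (integrin chains), Ddr2, a collagen-sensing kinase (1.83, SE 0.274), and Mrc2, an uptake receptor for collagen (3.09, SE 0.553). Mrc2 was at 14.9 to 25.1 CPM in the 3 lean and 67.7 to 559 CPM in the 9 obese libraries. Of 22 TGF-beta and fibrosis regulators 5 rose (22.7%) and none fell, among them Ccn1, a matricellular protein gene, at 1.96 (SE 0.551); the share called is near the 23.7% over all genes.

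Of 31 other matrix components 5 rose and 4 fell in the same set, 29% called against 23.7% of all genes. Hspg2 (perlecan, of the basement membrane) rose by 2.17 (SE 0.331) and Prelp (a proteoglycan that anchors basement membrane) by 3.16 (SE 0.481), along with Fbln5, Efemp1 and Lamb2. Among those that fell were Dcn (decorin), Mfap2 and Col17a1, a gene of epithelial attachment. In the libraries with lymph node, 3 of 21 modification genes were called (1 higher, 2 lower), 3 of 16 receptors (all lower), 9 of 22 regulators (3 higher, 6 lower) and 7 of 31 other components (1 higher, 6 lower), where 15.4% of all genes were called. Prelp (1.39, SE 0.365) was higher there too, while Serpinh1, the collagen chaperone, was at -1.75 (SE 0.272).

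In the 4 groups, fewer of these genes were called. Under IgG2a they were 4 of 21 modification genes, 3 of 16 receptors, 1 of 22 regulators and 2 of 31 other components (Vcan and Prelp), all higher, where 5.79% of all genes were called. The shares of regulators (4.55%) and other components (6.45%) are near that. Under anti-PD-1 they were 4, 5, 2 (Ccn1 among them) and 5, of which 1 of the other components was lower, where 10.1% of all genes were called. The share of regulators (9.09%) is near that. With anti-PD-1 in obese mice Adamts14, a procollagen peptidase, fell by 2.75 (SE 0.629) and no other gene of the lists was called. Without obese IgG2a 2 and 5, the libraries richest in E0771-associated genes, no member was called in that comparison or for obesity under IgG2a. Whether the calls of these lists hold without those libraries was not checked.

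Some chain genes of the same protein did not keep 1 ratio across libraries. These ratios were chosen after the values were seen and are given as a description without a test. Type I collagen is mostly built of alpha 1 and alpha 2 chains from Col1a1 and Col1a2. Their TPM ratio was 0.657 to 1.22 in the 3 lean and 1.37 to 2.66 (median 1.98) in the 9 obese libraries without lymph node. With lymph node it was 0.704 to 1.04 in lean and 0.685 to 1.03 in obese libraries. The ratio of Col6a3 to Col6a1 was 1.07 to 2.10 in lean and 0.407 to 1.11 in obese libraries without lymph node, and 0.915 to 1.81 in lean and 0.604 to 1.36 in obese libraries with it.

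Lamb1 to Lamc1, laminin beta and gamma chain genes, had a ratio of 0.678 to 1.33 in lean and 0.371 to 0.532 in obese libraries with lymph node, and 0.674 to 1.07 and 0.302 to 1.03 without it. Col4a1 to Col4a2 had a ratio of 0.988 to 1.88 over the 23 libraries. For Col6a1 to Col6a2 the median ratio was 0.904 in lean and 1.06 in obese libraries with lymph node, and 0.949 and 1.05 without it. Col5a1 to Col5a2 was at 0.686 to 1.18 in lean and 1.11 to 4.97 in obese libraries without lymph node, highest in obese IgG2a 5. Nid1 to Nid2 was at 6.13 to 10 and 4.01 to 16.4 there, highest in the same library. TPM rests on which transcripts reads were assigned to. The leading transcript held on average 97.5% of the TPM for Col1a1, 95.8% for Col1a2, 71.8% for Col6a3, 60.1% for Lamb1 and 41% for Lamc1. The ratios of Col6a3, Lamb1 and Lamc1 thus lean more on that assignment.

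**Figure D5:**
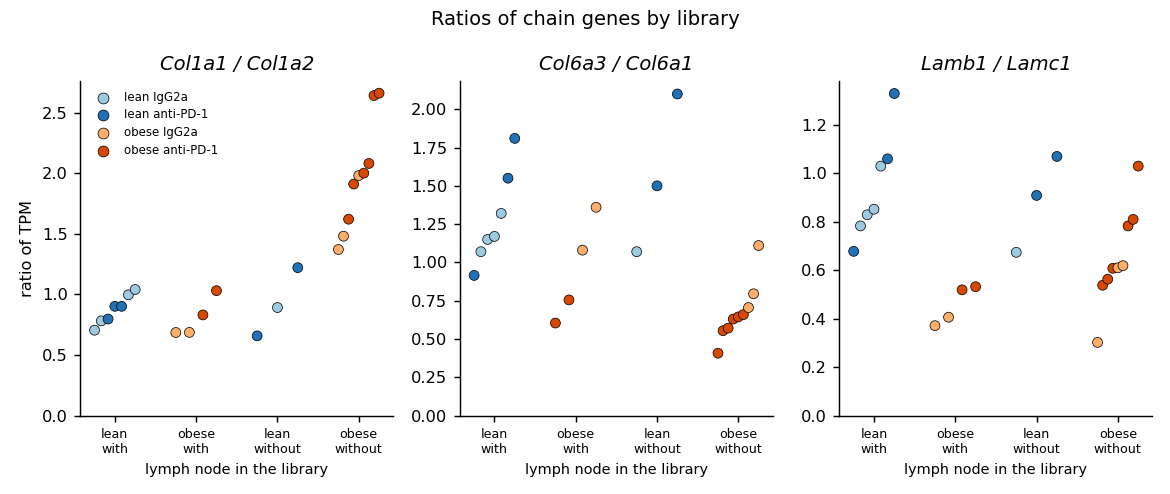
Ratio of TPM (y axis) between chain genes in each library, by weight and lymph node content (x axis), with colors for the 4 groups. The ratio of Col1a1 to Col1a2 is 1.37 to 2.66 in obese libraries without lymph node and at most 1.22 in the other libraries.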

How the data were processed

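Per the labels, RNA from fat pad was sequenced as non-directional poly(A) libraries, so strand was not read. The authors deposited, for each of 115088 transcripts, an estimated count, a TPM and lengths. No source used here names the program that made them, and the submitters' processing notes name GRCm38, edgeR and limma without versions. The effective lengths the authors deposited did not differ between libraries. By GENCODE M21, 114200 transcripts were assigned to genes, and the 888 others held at most 0.208% of a library's counts. Estimated counts were summed per gene, rounded and kept by filterByExpr (minimum count 10, by group). CPM are counts scaled to the total gene counts of a library, and TPM are the authors' values summed per gene.

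Tests used edgeR 4.0.16 (R 4.3.3, TMM scaling, robust quasi-likelihood, two-sided), in fits on all 23 libraries with Benjamini-Hochberg adjustment over 19882 genes. The fits had 4 group means, or these with a lymph node term (Glycam1 at or above 10 CPM), or obesity and antibody within each lymph node set. The script was tested on simulated data that had less spread between libraries than these and no mixture of tissues. That test checks the code and gives no error rates for these data. Alternatives used DESeq2 1.42.0, limma 3.58.1 on log2(TPM + 1), other filters, covariates and libraries left out. Depth limits counting error only, and samples are separate mice by the labels.

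The members and all gene lists were chosen with earlier results of these data known. Text values follow this rule: members called in any comparison, the 3 of smallest p in each comparison and the 5 of highest TPM, and from other lists the called genes. Ratios and promoters were added later. Some genes of the other lists are counted but not reported here by name.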

Additional observations from a re-analysis of the deposited data

Results flagged for a closer look

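Among 172 gene-by-group sets of log2(CPM + 0.1), 6 values stood apart from their group by Dixon's test at the 95% level. Chance gives about 1 in 20, so 6 are no more than chance would give. The groups mix libraries with and without lymph node. Of these, 3 were in lean anti-PD-1 1 and low: Lama2 at 7.52 CPM (others 15.9 to 19.4), Lum at 29.6 CPM (58.2 to 74.5) and Postn at 75.3 CPM (145 to 183). Lean anti-PD-1 2 was high for Col12a1 at 19.1 CPM (3.59 to 5.83), and lean IgG2a 5 was high for Lum at 139 CPM (49.5 to 54.1). The latter is the only lean IgG2a library without lymph node. Obese anti-PD-1 3 was low for Mfap5, a microfibril gene, at 1.31 CPM (9.39 to 23).

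The obesity effect differed between libraries with and without lymph node, by the test of that difference, in 24 members. For the collagen genes the difference (effect with minus effect without lymph node, log2) was -2.15 for Col1a1, -2.29 for Col3a1, -2.33 for Col5a1, -1.78 for Col5a2, -2.70 for Col5a3, -2.23 for Col4a1, -2.56 for Col4a2 and -2.24 for Col18a1. It was -2.59 for Col6a1, -2.47 for Col6a2, -2.84 for Col6a3 and -2.29 for Col16a1. For the nidogens and laminins it was -2.29 for Nid1, -2.61 for Nid2, -1.99 for Lama2, -1.95 for Lama4, -1.40 for Lamb1 and -2.01 for Lamc1. For the rest it was -2.92 for Loxl2, -2.07 for Fbln2, -2.02 for Sparc, -1.54 for Thbs1, -2.43 for Tnc and -1.85 for Tnxb. Leaving out single libraries ended the call in 1 to 19 of 23 fits for 12 of the 24 members, most often for Thbs1 (19), Nid2 (11) and Col5a2 (10). In the obese libraries with lymph node, B cell and macrophage markers were higher, and adipocyte, endothelial and mammary epithelial markers lower, for some genes of each list. The part of these cells in the difference was not tested beyond the B cell score.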

How the results depend on the processing

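The members called for obesity under IgG2a, 4 with edgeR, were 10 by DESeq2's Wald test, 2 on log2(TPM + 1), 9 with a lymph node term and 0 without obese IgG2a 2 and 5. Those for obesity under anti-PD-1, 5 with edgeR, were 19 by DESeq2, 10 on log2(TPM + 1) and 2 with a skeletal muscle score. For anti-PD-1 in obese mice the 1 call became 0 on log2(TPM + 1) and 0 without obese IgG2a 2 and 5, and for the interaction DESeq2 called 1. For obesity with lymph node, 17 became 10 on log2(TPM + 1) and 2 with the B cell score, and for the difference between the sets 24 became 1 with that score. The cause was not tested. Leaving out each library gave 2 to 8 calls for obesity under IgG2a (2 without obese IgG2a 5, 8 without obese anti-PD-1 3) and 2 to 15 under anti-PD-1 (2 and 3 without libraries 4 and 5 of the lean anti-PD-1 group, 8 and 9 without 4 and 3 of obese IgG2a, 12 and 15 without 4 and 3 of obese anti-PD-1). It gave 0 to 0 for anti-PD-1 in lean mice, 0 to 3 in obese mice (0 in 12 fits, 3 without obese IgG2a 4) and 0 to 0 for the interaction. The range was 36 to 40 for lymph node content, 9 to 22 for obesity with lymph node (9, 10 and 11 without obese IgG2a 3, obese IgG2a 1 and obese anti-PD-1 3), 9 to 27 without it (9 without lean anti-PD-1 4) and 12 to 27 for the difference (12 without lean anti-PD-1 4, 13 without obese IgG2a 3). Other settings kept every count within 1.5 times, and no named member's sign turned where it was called. DESeq2 size factors moved the median of all genes for the difference from -0.28 to -0.15, and the genes higher from 681 of 2372 to 1015 of 2187 called (for obesity with lymph node from 990 of 3057 to 1565 of 3364), while 23 of the 24 members called for the difference kept the call. No paired analysis was made, because by the labels each library is a separate mouse and no pairs are named.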
